A study of Mus musculus with 12 samples.

Results

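The comparison was between untreated livers of 2 genotypes, with 3 FBXL5ΔDC livers set against 3 control livers out of 12 whole-liver RNA-seq libraries. The libraries were taken by their labels, and all genes of the table were considered. Gene lists and named genes were chosen with earlier results of these data known. Control mice were Fbxl5F/F, so both copies of Fbxl5 carried loxP sites. FBXL5ΔDC mice were Cd11c-Cre/Fbxl5F/F, with the same alleles and a Cre recombinase driven by the promoter of Cd11c (Itgax), an integrin subunit of dendritic cells that some macrophages also make. All mice were male and 7 to 10 weeks old, and neither of these groups received acetaminophen. Fasting was described for the injected mice of the series and was not stated for the untreated ones. The labels did not say whether replicates were littermates, so p-values measured only the spread between these samples.

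FBXL5 is the substrate-recognition subunit of a ubiquitin ligase. When iron is plentiful it is stable and marks the iron regulatory protein IRP2 for degradation, and IRP2 otherwise binds the messenger RNAs of ferritin and of the transferrin receptor. In the liver most RNA comes from hepatocytes, whereas dendritic cells are rare. The gene was removed only where the promoter of Cd11c was active, so the comparison asked what state the rest of the liver was in before any drug was given.

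The 6 libraries held 68674537 to 72512319 counts and 19203 to 20471 detected genes each. Levels are given as CPM, counts relative to the scaled library size. The scaling factors lay between 1.034 and 1.084 in control and between 0.944 and 0.958 in FBXL5ΔDC libraries, and the groups did not overlap. Hepatocyte genes led all libraries. Per exon length the most abundant protein-coding genes were Alb (albumin), mt-Co1, Mup17, Apoe and Mup12. The female-specific transcript Xist was at 0 to 0.350 CPM in every library.

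Fbxl5 itself did not separate the genotypes in whole liver. It was at 21.01, 22.0 and 17.7 CPM in control replicates 1 to 3 and at 10.4, 19.9 and 21.7 CPM in FBXL5ΔDC replicates 1 to 3. FBXL5ΔDC replicate 1 was low, and the other two lay within the control range. The log2 difference was −0.23 with a 95% interval from −0.83 to 0.38 (edgeR adjusted p = 0.954). The gene (chromosome 5, 43744615 to 43821638, GRCm38) overlaps Bst1 on the other strand, but Bst1 did not exceed 0.397 CPM in any library. Itgax, which encodes CD11c, was at 0.108, 0.369 and 0 CPM in control and at 0, 0.0739 and 0.272 CPM in FBXL5ΔDC livers. These values straddled the detection floor of 12 counts, which was 0.161 to 0.181 CPM, and the gene was too low to be tested. In bulk liver, fewer cells of a type and less RNA per cell cannot be told apart, and these levels give no check that the deletion took place.

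Markers of dendritic cells were too low to say how many such cells these livers held. Of 20 markers, 14 were abundant enough to be tested and 6 lay under the floor in both genotypes, among them Itgax, Flt3 (a growth factor receptor of dendritic cell precursors) and Cd209a. The transcription factor Zbtb46 was measurable, at 4.19, 4.90 and 3.54 CPM in control and 3.73, 3.49 and 3.57 CPM in FBXL5ΔDC livers, and the groups overlapped. Its log2 difference was −0.23 (95% interval −0.69 to 0.23, edgeR adjusted p = 0.949). Clec9a, a receptor of cross-presenting dendritic cells, was at 1.01, 1.59 and 2.54 CPM against 1.54, 1.45 and 0.695 CPM, with an interval from −1.44 to 0.48. Xcr1, a chemokine receptor of the same cells, stayed at or below 0.325 CPM and its interval ran from −2.24 to 2.90. Only 4 of the 14 tested markers had a 95% interval inside a 2-fold change in either direction, against 65.4% of all tested genes. Of the 14, 9 had a positive log2 difference and the median was 0.20. The summed level of the list was 305, 349 and 387 CPM in control and 363, 399 and 363 CPM in FBXL5ΔDC livers, with overlap, and most of it was Kmo and Bst2, which other liver cells also make. EdgeR called no marker, and Fscn1 (the actin bundler fascin) was the only one at an unadjusted p below 0.05, with 3.50, 3.02 and 3.45 CPM against 2.43, 1.43 and 2.16 CPM (edgeR adjusted p = 0.824).

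**Figure D1:**
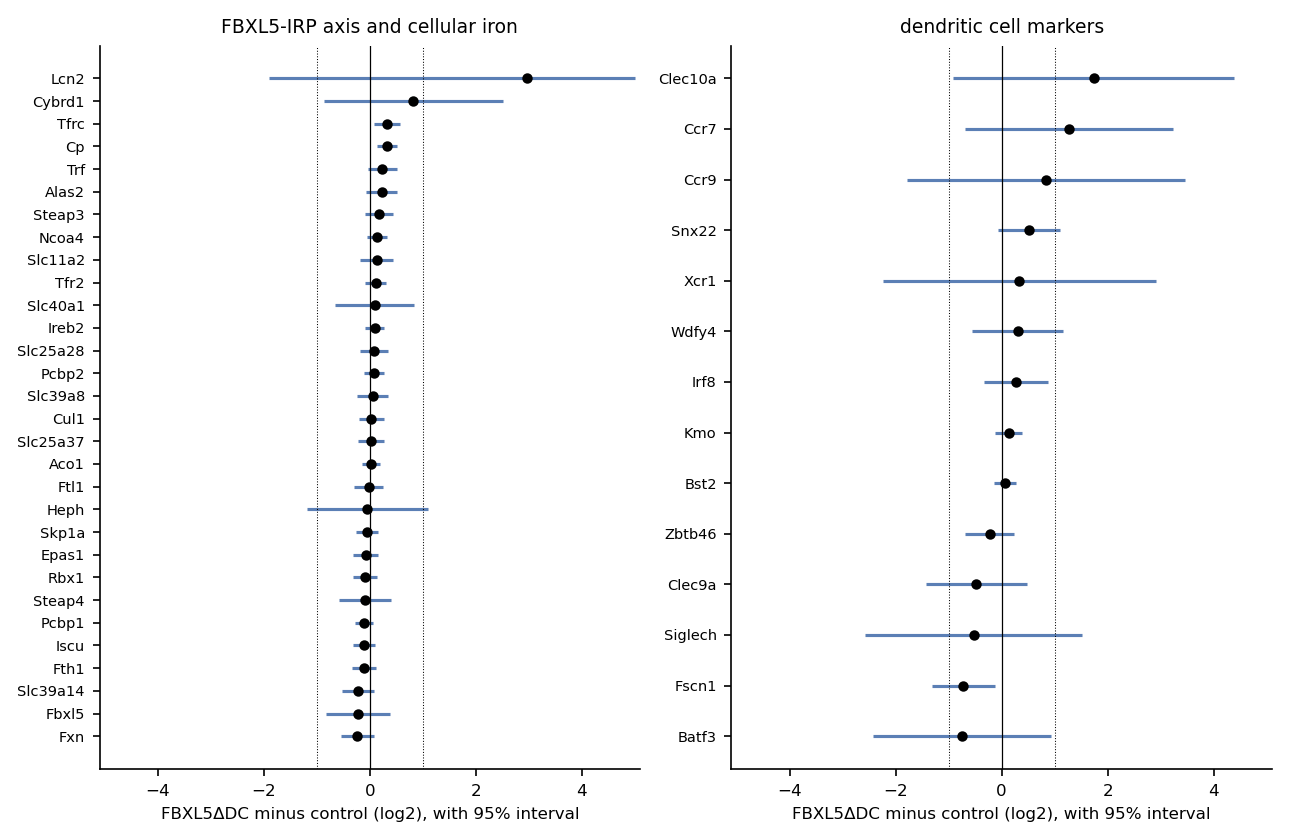
Log2 difference (FBXL5ΔDC minus control, points) with its 95% interval (lines) for tested members of the iron list (left) and the dendritic cell markers (right), with dotted lines at a 2-fold change. Of the iron genes, 27 of 30 intervals lay within the dotted lines, against 4 of 14 for the dendritic cell markers. Intervals of genes at low levels are wider.

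Across 15921 tested genes the untreated genotypes differed in few called genes. At an edgeR adjusted p below 0.05, 3 genes were higher in FBXL5ΔDC livers (0.0188%) and 0 were lower (0.0%). At an unadjusted p below 0.05 there were 933 genes (5.86%), of which 522 were higher and 411 were lower. That share depended on level, with 3.41% below 1 CPM and 10.9% from 100 CPM up. All 3 FBXL5ΔDC libraries lay above all control libraries for 1000 genes (6.28%) and below them for 932 genes (5.85%), together 12.1%. The median log2 difference was −0.0020. Of the other tools, limma-trend called 4 genes higher and 0 lower, and DESeq2 called 48 higher and 19 lower. The fit that took its spread from all 12 libraries called 0 in either direction, with 465 at an unadjusted p below 0.05. The common dispersion was 0.0745 in the 6 untreated libraries and 0.153 in all 12.

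The data bounded the difference of abundant genes more tightly than that of rare ones. For 10417 genes, 65.4% of those tested, the 95% interval lay wholly within a 2-fold change. From 10 to 100 CPM this held for 96.7% of 6031 genes, with a median half-width of 0.26 on the log2 scale. From 1 to 10 CPM it held for 70.2% of 4813 genes, and below 1 CPM for 0.936% of 3845 genes, where the median half-width was 1.66. Only 18 genes had an interval wholly outside a 2-fold change, and these intervals are not adjusted for the number of genes tested. Libraries of different genotype were on average 0.838 apart, as a root mean square log2 difference, and libraries of the same genotype 0.824. The excess was 0.0134 (exact permutation test, two-sided p = 0.2), and over genes of at least 5 CPM it was 0.0276 (exact permutation test, two-sided p = 0.1). The smallest p that 3 against 3 allow is 0.1, so this test could not pass 0.05 in either case.

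**Figure D2:**
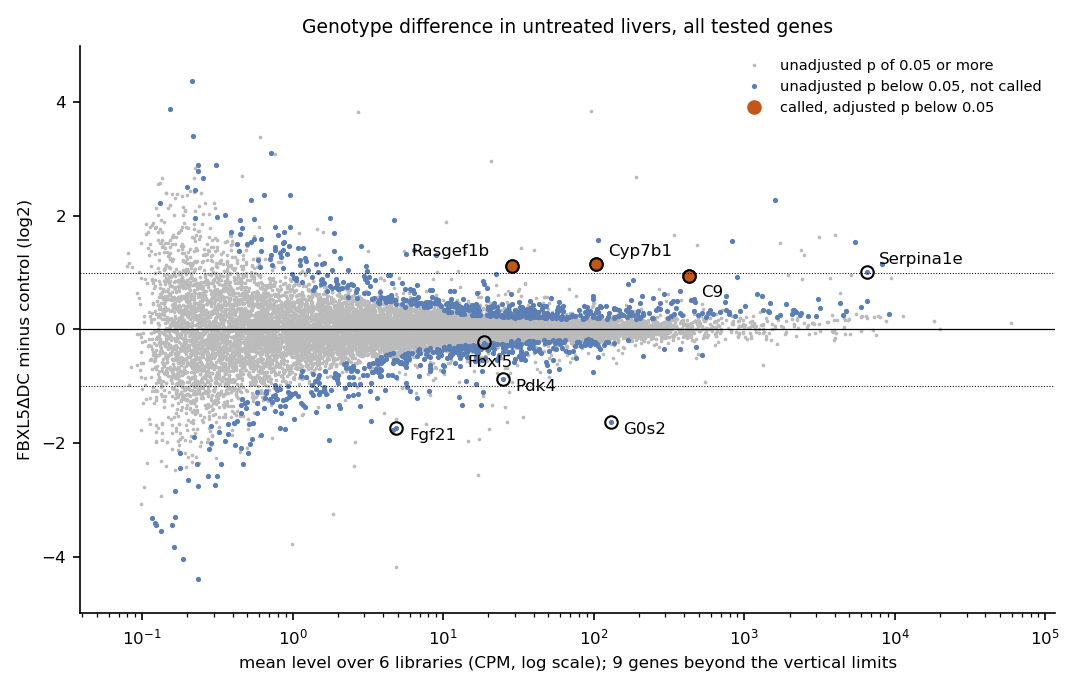
Log2 difference (FBXL5ΔDC minus control) of each tested gene against its mean level over the 6 libraries in CPM on a log scale, with dotted lines at a 2-fold change. The 3 called genes (orange) were all higher in FBXL5ΔDC livers, and the cloud widens below 1 CPM.

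The called genes were C9, Cyp7b1 and Rasgef1b, and each was about 2-fold higher in FBXL5ΔDC livers. C9 encodes the pore-forming last component of complement and lies on chromosome 15 from 6445327 to 6498751. It was at 296, 282 and 306 CPM in control and at 539, 590 and 557 CPM in FBXL5ΔDC livers. The groups lay far apart relative to their own spread. The log2 difference was 0.93 (SE 0.086, edgeR adjusted p = 0.0113). Cyp7b1 encodes an oxysterol hydroxylase of the alternative route of bile acid synthesis, which is made more in male than in female mouse liver, and lies on chromosome 3 from 18071950 to 18243338. It was at 58.4, 67.3 and 66.2 CPM against 118, 166 and 142 CPM, with no overlap. Its log2 difference was 1.15 (SE 0.12, edgeR adjusted p = 0.0203). Rasgef1b encodes an exchange factor for a small GTPase of the Rap group and lies on chromosome 5 from 99217426 to 99729065. It was at 17.3, 20.9 and 16.0 CPM against 43.1, 37.4 and 36.6 CPM, again without overlap. The log2 difference was 1.11 (SE 0.12, edgeR adjusted p = 0.0203). Several non-coding genes overlap Rasgef1b on both strands, and the strand setting of the counting was not known.

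**Figure D3:**
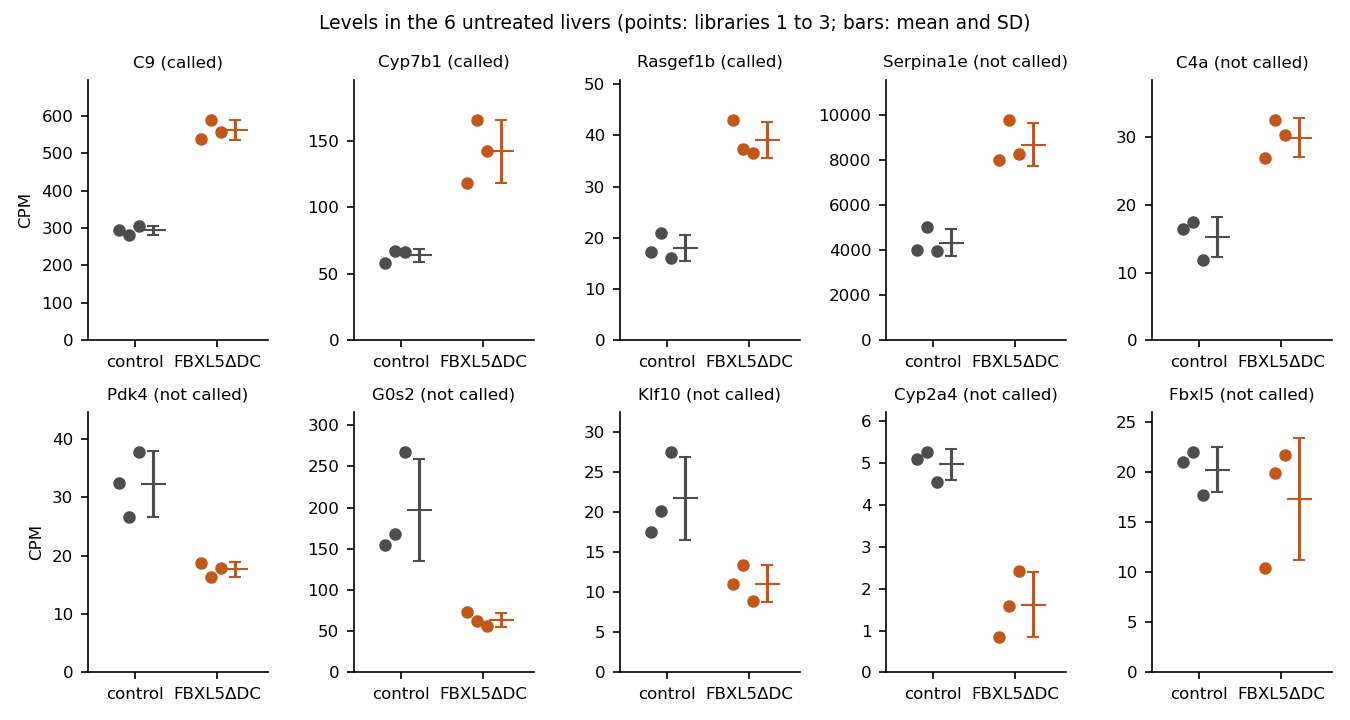
CPM in each untreated library (points, replicates 1 to 3 from left to right) with the mean and SD of each genotype for 10 genes, each panel with its own axis from 0. C9, Cyp7b1 and Rasgef1b were called, and in all panels except that of Fbxl5 the genotypes do not overlap.

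These calls rested on few libraries. All 3 genes stayed called with the other scalings, without a filter on low counts, with limma-trend and with DESeq2. None was called in the fit of all 12 libraries, where their adjusted p ran from 0.333 (C9) to 1, or without FBXL5ΔDC replicate 2, where C9 and Cyp7b1 both had an edgeR adjusted p of 0.101 and Rasgef1b one of 0.161. C9 was also lost without control replicate 2 (edgeR adjusted p = 0.0545). Cyp7b1 was called in 1 of the 6 fits that left out a library, the one without FBXL5ΔDC replicate 1. Rasgef1b was called in 2 of the 6, those without control replicate 2 or 3. The log2 differences themselves moved little, between 0.90 and 0.96 for C9 and between 1.03 and 1.27 for Cyp7b1 over all alternatives.

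The livers taken 6 h after acetaminophen, which share no library with the untreated ones, gave a separate look at the same genes. There C9 was at 295, 429 and 342 CPM in control livers against 487, 441 and 393 CPM, and the log2 difference was 0.31 (edgeR adjusted p = 0.457). Rasgef1b had a log2 difference of 0.36 (edgeR adjusted p = 0.629), and Cyp7b1 one of −0.56 (edgeR adjusted p = 0.618). So 2 of the 3 genes kept their direction and 0 were called by edgeR, with or without treated control replicate 3. Of 908 genes at an unadjusted p below 0.05 in untreated livers that could be tested at 6 h, 454 had the same direction there (50%), against 48.9% of all 15181 genes tested in both.

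The next genes in order of p were not called by edgeR, although DESeq2 called those named here. Serpina1e, one of a cluster of near-identical α1-antitrypsin genes whose reads can be split between copies, was at 4019, 5018 and 3949 CPM in control and 7984, 9792 and 8287 CPM in FBXL5ΔDC livers. Its groups were as far apart as those of the called genes, with a log2 difference of 1.01 and an edgeR adjusted p of 0.0560. It was called in 5 of 14 alternatives, among them limma-trend, DESeq2 and the replicate block. Ces2c and Ces3b, which encode carboxylesterases, had log2 differences of 1.075 and 0.63 (edgeR adjusted p = 0.151 and 0.154). Slc46a3, a lysosomal transporter, was at 14.8, 14.9 and 14.4 CPM against 27.6, 24.8 and 20.7 CPM (edgeR adjusted p = 0.217). Fam222a was at 2.46, 2.45 and 1.004 CPM against 8.03, 7.49 and 6.92 CPM (edgeR adjusted p = 0.198).

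Among genes that were lower, the leading ones included regulators of fuel use, which DESeq2 called and edgeR did not. Pdk4, a kinase that blocks entry of pyruvate into the citric acid cycle, was at 32.5, 26.5 and 37.7 CPM in control and 18.8, 16.3 and 17.8 CPM in FBXL5ΔDC livers. G0s2, an inhibitor of the main triglyceride lipase, was at 155, 168 and 267 CPM against 73.3, 62.2 and 56.3 CPM. Neither pair of groups overlapped, and the edgeR adjusted p was 0.154 for Pdk4 and 0.267 for G0s2. G0s2 lies within a stretch shared with Lamb3 on the other strand. Klf10, a growth-factor-induced transcription factor, was at 17.5, 20.2 and 27.5 CPM against 11.0, 13.4 and 8.89 CPM (edgeR adjusted p = 0.368). Tkfc, which acts in fructose breakdown, was at 282, 229 and 231 CPM against 176, 180 and 183 CPM (edgeR adjusted p = 0.368). At 6 h the log2 differences of Pdk4, G0s2 and Klf10 were 1.73, 1.01 and 1.76, opposite in sign to the untreated ones, and none of them was called (edgeR adjusted p = 0.372, 0.301 and 0.146). That result rested on treated control replicate 3, since without it G0s2 and Klf10 were called higher at 6 h (edgeR adjusted p = 0.0242 and 0.000318), and the number of genes called at 6 h went from 6 to 2863.

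Genes known to be made more in male than in female mouse liver were mostly higher in FBXL5ΔDC livers. Of 24 such genes, all tested, 23 had a positive log2 difference, 13 were higher at an unadjusted p below 0.05 (3.28% of all tested genes were) and 15 were higher without overlap (6.28%). Only Cyp7b1 was called by edgeR. The median log2 difference was 0.63, between 0.54 and 0.68 over the alternatives, against −0.0020 for all genes. The list is not independent of the call, since it holds Cyp7b1, and it was split off from a longer list of sex-dimorphic genes after values were seen. The summed level of the 24 genes was 26601, 34468 and 27324 CPM in control and 60637, 56122 and 51179 CPM in FBXL5ΔDC livers.

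The list holds several major urinary proteins, small pheromone carriers that the male liver secretes in large amounts. Summed over all 22 genes named Mup, also those outside the list, they reached 32171, 58825 and 34590 CPM in control and 100513, 86034 and 78108 CPM in FBXL5ΔDC livers. Control replicate 2 was the highest control library, and the groups did not overlap. The ratio of the group means was 2.11. The copies are nearly identical and the pseudogenes Mup-ps18 and Mup-ps20 were listed at 0 in some libraries and at up to 1222 and 381 CPM in others, so single members are uncertain. Mup7 was at 2566, 4346 and 1470 CPM against 9839, 7669 and 6845 CPM (log2 1.54, edgeR adjusted p = 0.803). Mup2 had a log2 difference of −0.14 (95% interval −1.98 to 1.704).

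Male-biased genes outside that family differed among themselves. Cyp4a12b, a fatty acid hydroxylase, was at 107, 119 and 161 CPM in control and 207, 230 and 269 CPM in FBXL5ΔDC livers (edgeR adjusted p = 0.357). Ugt2b1, which attaches glucuronic acid to steroids and drugs, was at 440, 329 and 359 CPM against 547, 549 and 545 CPM (edgeR adjusted p = 0.368). Slco1a1, an uptake transporter for organic anions, was at 257, 205 and 228 CPM against 268, 349 and 338 CPM (edgeR adjusted p = 0.623). Each of these comparisons had no overlap and none was called by edgeR, whereas DESeq2 called Ugt2b1 (adjusted p = 0.00198). Keg1 and Susd4 overlapped, with log2 differences of 0.08 and 0.07.

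Female-biased genes were few and low. Of 13 such genes, 9 could be tested, 7 had a negative log2 difference, 2 were lower at an unadjusted p below 0.05 (2.58% of all genes) and edgeR called 0. Cyp2a4, a steroid hydroxylase, was at 5.09, 5.27 and 4.56 CPM in control and 0.850, 1.60 and 2.42 CPM in FBXL5ΔDC livers (log2 −1.62, edgeR adjusted p = 0.368). DESeq2 called Cyp2a4 (DESeq2 adjusted p = 0.00207). Cyp2b9 was at 1.72, 20.7 and 5.03 CPM against 0, 1.03 and 0.484 CPM, with an interval from −8.40 to 0.05. Trim24, a chromatin reader, was at 25.8, 26.2 and 28.9 CPM against 20.4, 23.9 and 23.2 CPM (edgeR adjusted p = 0.842). Cyp3a41a had a positive log2 difference, at or below 0.266 CPM in every library. The median of the 9 genes was −0.39, and it ran from −0.997 to −0.19 over the alternatives.

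**Figure D4:**
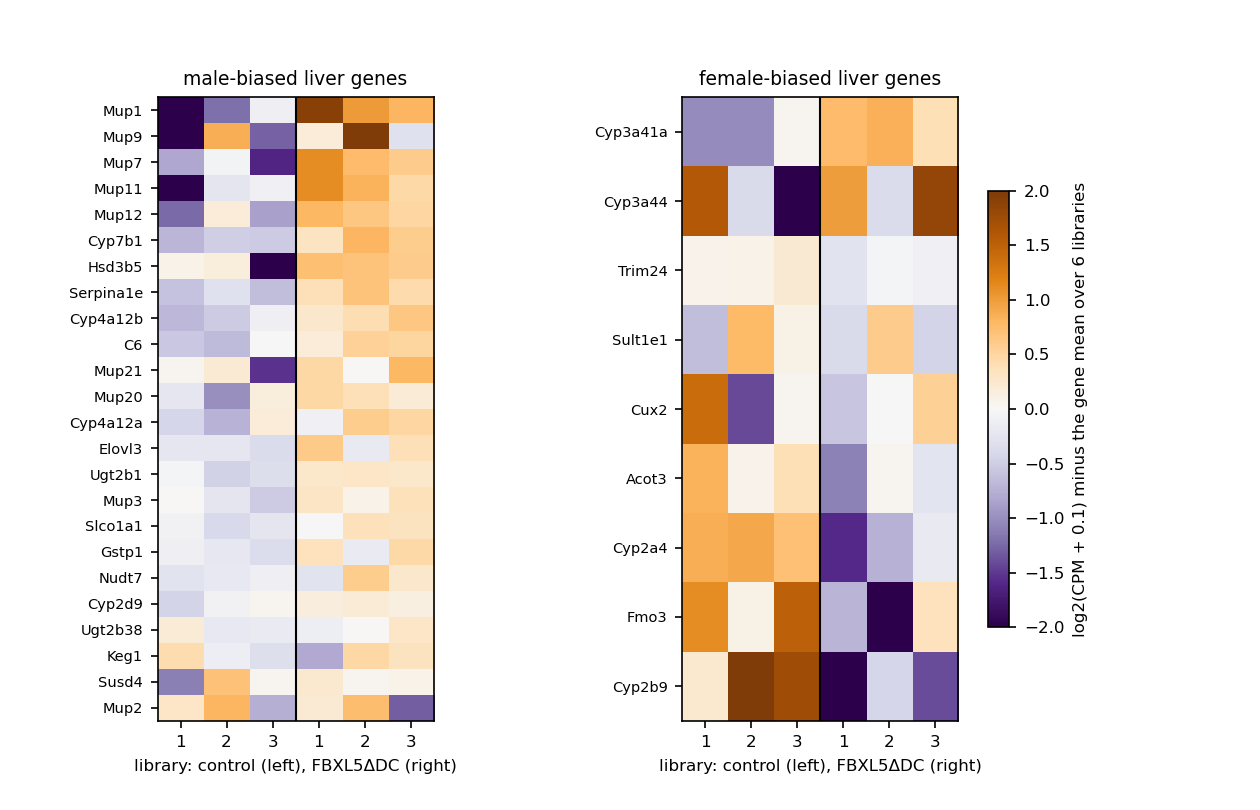
Colour shows log2(CPM + 0.1) minus the mean of the gene over the 6 libraries for tested male-biased (left) and female-biased (right) genes, with control libraries to the left and FBXL5ΔDC libraries to the right of the black line. Of the 24 male-biased genes 23 had a positive log2 difference, and of the 9 female-biased genes 7 had a negative one.

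The complement system, a cascade of plasma proteins made largely by hepatocytes, had C9 as the gene called by edgeR and mostly positive differences otherwise. DESeq2 also called C2 and C4a. The list of 32 genes was drawn up after C9 had been seen, so it is no independent evidence. Of 31 tested genes, 30 had a positive log2 difference, 21 were higher at an unadjusted p below 0.05 (3.28% of all genes) and 19 were higher without overlap (6.28%). Of all tested genes from 100 CPM up, 10.9% had such a p in either direction. The median of the list was 0.34, with 0.30 to 0.40 over the alternatives. Leaving out single libraries gave 16 to 22 genes at an unadjusted p below 0.05, and the fit of all 12 libraries gave 13. In the latter fit the number over all tested genes fell too.

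Members of each step other than C9 were not called by edgeR. Among the starting enzymes, C1ra was at 237, 232 and 253 CPM in control and 307, 308 and 315 CPM in FBXL5ΔDC livers, and C2 at 74.1, 79.7 and 88.9 CPM against 121, 113 and 117 CPM (edgeR adjusted p = 0.419 and 0.198). C4b, which is cleaved by C1s, was at 817, 1042 and 1032 CPM against 1312, 1663 and 1487 CPM (edgeR adjusted p = 0.368). Its neighbour C4a is a near-identical copy, at 16.4, 17.5 and 11.9 CPM against 26.9, 32.6 and 30.3 CPM (edgeR adjusted p = 0.154). Of the terminal components that build the pore with C9, Hc (complement C5) was at 574, 583 and 655 CPM against 792, 990 and 937 CPM, and C6 at 109, 101 and 159 CPM against 181, 234 and 227 CPM (edgeR adjusted p = 0.336 and 0.539). C3, the most abundant member, overlapped, with 7469, 6982 and 6792 CPM against 6442, 9916 and 8709 CPM, and its interval ran from −0.09 to 0.57. The lectin Mbl2 had a log2 difference of −0.02.

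As a list, the plasma proteins had a smaller median difference than the complement genes. Of 35 listed genes, all tested, 12 were higher at an unadjusted p below 0.05 (3.28% of all genes), 0 were lower and 16 were higher without overlap (6.28%). Of all tested genes from 100 CPM up, 10.9% had such a p in either direction. The median of the list was 0.19, and 32 of 35 intervals lay within a 2-fold change. Serpina1e, described above, had the lowest p of the list (edgeR adjusted p = 0.0560). Its log2 difference ran from 0.91 to 1.13 over the alternatives. Alb overlapped, at 60846, 57982 and 50712 CPM against 61791, 55163 and 66007 CPM, with an interval from −0.15 to 0.37. Plg (plasminogen) was at 1743, 2024 and 1863 CPM against 2285, 2476 and 2373 CPM (edgeR adjusted p = 0.695). Vtn (vitronectin) was at 1812, 1824 and 1928 CPM against 2212, 2419 and 2417 CPM (edgeR adjusted p = 0.633), and DESeq2 called it (adjusted p = 0.0181). Without FBXL5ΔDC replicate 2 or 3 the number at an unadjusted p below 0.05 was 6, and in the fit of all 12 libraries it was 4. In the latter fit the number over all tested genes fell too.

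Acute phase proteins are secreted by the liver in inflammation, and FBXL5ΔDC replicate 2 stood apart in 3 of them. Saa1 (serum amyloid A) was at 14.7, 20.4 and 119.8 CPM in control and at 41.2, 813 and 138 CPM in FBXL5ΔDC livers. Saa2 was at 5.19, 4.39 and 28.1 CPM against 10.8, 498 and 33.7 CPM. Lcn2, a binder of bacterial siderophores, was at 2.33, 2.70 and 9.20 CPM against 3.27, 103 and 4.41 CPM. In each case replicate 2 was the highest library and the other FBXL5ΔDC libraries lay within or close to the control range. Their intervals spanned 0, and the edgeR adjusted p was 0.911, 0.888 and 0.915. Control replicate 3 was the highest control library for all 3. Of 33 tested acute phase genes, 12 were higher and 0 lower at an unadjusted p below 0.05 (3.28% and 2.58% of all genes), with a median of 0.30. Of all tested genes from 100 CPM up, 10.9% had such a p in either direction. The list holds C9, its only member called by edgeR, whereas DESeq2 also called Cp and Lbp. Without control replicate 2, FBXL5ΔDC replicate 2 or FBXL5ΔDC replicate 3 the count was 7, and without FBXL5ΔDC replicate 2 the median was 0.14. Cp (ceruloplasmin) did not follow that pattern, with 848, 865 and 801 CPM against 1029, 1059 and 1055 CPM (edgeR adjusted p = 0.626), nor did Lbp, a binder of bacterial lipopolysaccharide, with 141, 146 and 148 CPM against 176, 185 and 193 CPM (edgeR adjusted p = 0.466).

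**Figure D5:**
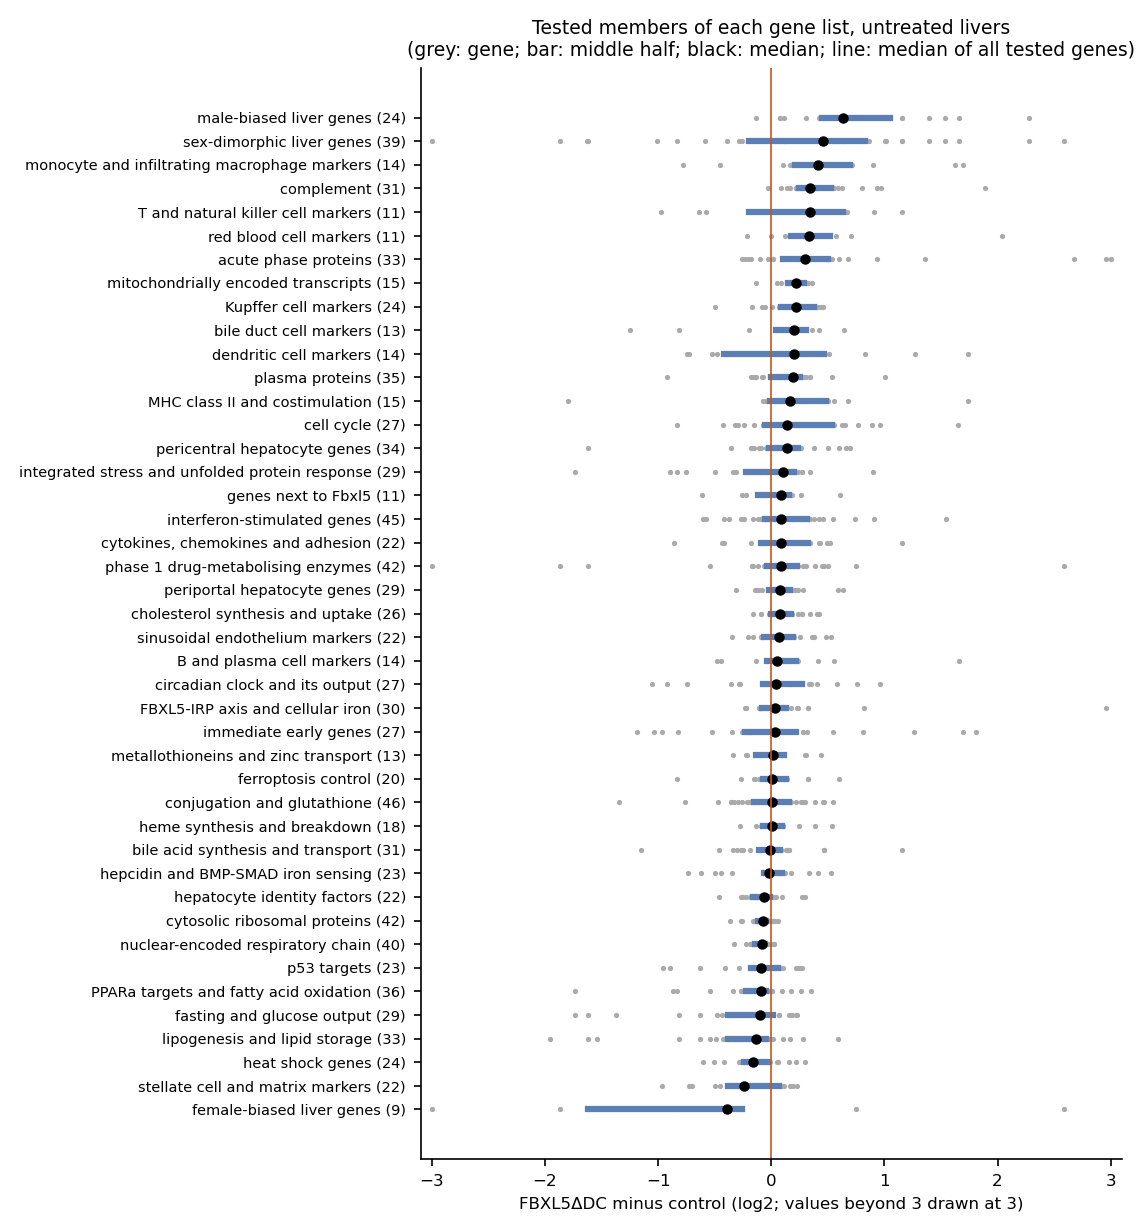
Log2 difference (FBXL5ΔDC minus control) of tested members of each gene list (grey points), with the interquartile range (blue bar) and the median (black), lists with fewer than 9 tested members left out, and the number tested in brackets. The male-biased list has the highest median at 0.63 and the female-biased list the lowest at −0.39, and the orange line marks the median of all tested genes.

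Genes of fat handling tended towards lower values, mostly by small amounts. Pdk4 led the PPARα list by p and G0s2 the lipogenesis list, and both, described above, were called by DESeq2 and not by edgeR. Over the alternatives their log2 differences ran from −0.99 to −0.74 (Pdk4) and from −1.77 to −1.34 (G0s2). Of 36 targets of PPARα and enzymes of fatty acid oxidation, 29 had a negative log2 difference, 4 were lower and 0 higher at an unadjusted p below 0.05 (2.58% and 3.28% of all genes), and 31 intervals lay within a 2-fold change. The median was −0.09. Fgf21, a hormone of the fasted liver, was at 3.98, 6.90 and 11.8 CPM in control and 1.87, 2.94 and 1.98 CPM in FBXL5ΔDC livers (edgeR adjusted p = 0.513). Cyp4a14, a fatty acid hydroxylase strongly driven by PPARα, overlapped at 6836, 8335 and 8231 CPM against 6406, 7817 and 7731 CPM. Of 33 lipogenesis and lipid storage genes 28 were negative, with a median of −0.14. Control replicate 3 was highest for Plin2 (a coat protein of lipid droplets), at 966 CPM against 512 and 639 CPM in the other controls and 513, 671 and 565 CPM in FBXL5ΔDC livers. It was also highest for Cidec, which fuses droplets, at 58.2 CPM against 4.11 to 8.203 CPM in the other 5 libraries. Without control replicate 3 the medians were −0.02 and −0.01. Without control replicate 1, 13 of the PPARα genes and 9 of the lipogenesis genes were lower at an unadjusted p below 0.05, against 4 and 3 with all libraries. In that fit the number over all tested genes at this threshold also rose, to the highest of the fits that left out a library.

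Of 29 tested fasting and glucose genes 20 had a negative log2 difference, with a median of −0.10. At an unadjusted p below 0.05, 3 were lower and 0 higher (2.58% and 3.28% of all genes), 3 were lower without overlap (5.85%), and edgeR called 0. G0s2 and Fgf21, described above, had the lowest p of the list. Without control replicate 1 the number lower at an unadjusted p below 0.05 was 8, in a fit where the number over all tested genes rose too. Pck1, which controls glucose synthesis, was at 3644, 4429 and 3641 CPM against 4543, 4321 and 4216 CPM. These values overlapped, with a 95% interval of the log2 difference from −0.08 to 0.40.

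Iron handling, the process in which FBXL5 acts, gave narrow limits. Of 32 genes of the FBXL5 and IRP axis and of cellular iron, 30 were tested, 2 were higher and 0 lower at an unadjusted p below 0.05 (3.28% and 2.58% of all genes). EdgeR called 0, and DESeq2 called Cp (adjusted p = 0.0181), described above. Their median was 0.04, and 27 of 30 intervals lay within a 2-fold change, against 65.4% of all genes. That share depends on level, with 96.7% of all tested genes from 10 to 100 CPM and 0.936% below 1 CPM. Ireb2, which encodes IRP2, was at 89.1, 81.8 and 75.4 CPM in control and 85.9, 89.6 and 86.1 CPM in FBXL5ΔDC livers (95% interval −0.10 to 0.28). Tfrc, the transferrin receptor, was at 22.8, 21.2 and 25.8 CPM against 31.9, 28.8 and 26.5 CPM, without overlap (log2 0.32, edgeR adjusted p = 0.821). The ferritin chains overlapped, Fth1 at 1450, 1470 and 1410 CPM against 1275, 1221 and 1517 CPM, and Ftl1 at 3883, 3728 and 4032 CPM against 3235, 3748 and 4476 CPM. Slc40a1 (ferroportin, the iron exporter) varied more, at 180, 116 and 79.8 CPM against 130, 123 and 148 CPM. FBXL5 acts on IRP2 as a protein and IRP2 on the translation and stability of messages, and protein was not measured.

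The hepcidin pathway, by which the liver sets iron uptake of the body, had 17 of 23 tested intervals within a 2-fold change. Hamp, which encodes hepcidin, was at 219, 141 and 130 CPM in control and 216, 194 and 207 CPM in FBXL5ΔDC livers, with an interval from −0.10 to 0.77. Of 23 tested genes of the pathway, 3 were lower at an unadjusted p below 0.05, namely Bmp2, Smad7 and Id1 (2.58% of all genes were lower), and edgeR called 0. Bmp2, a ligand made by the endothelium, was at 15.9, 15.3 and 15.9 CPM against 13.5, 11.9 and 11.7 CPM (edgeR adjusted p = 0.770). Smad7, an inhibitor that the pathway induces, was at 13.6, 13.3 and 9.62 CPM against 9.91, 7.23 and 6.62 CPM (edgeR adjusted p = 0.731). Bmp6 had a log2 difference of 0.53 (95% interval −0.12 to 1.17). The median was −0.02, and its sign differed in 6 of 14 alternatives. All 18 genes of heme synthesis and breakdown had intervals within a 2-fold change, with a median of 0.005 whose sign differed in 4 of 14 alternatives.

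Kupffer cells, the resident macrophages of the liver, had clear markers. Of 24 markers, 20 were positive, 6 were higher at an unadjusted p below 0.05 (3.28% of all genes) and edgeR called 0, with a median of 0.22. Clec4f, a lectin specific to these cells, was at 35.9, 47.7 and 36.8 CPM in control and 54.1, 52.3 and 47.3 CPM in FBXL5ΔDC livers (edgeR adjusted p = 0.794). Csf1r, the receptor for their growth factor, was at 22.4, 20.2 and 19.9 CPM against 30.8, 28.8 and 25.6 CPM (edgeR adjusted p = 0.523). Csf1r was the only one of the 24 that did not overlap (6.28% of all tested genes were higher without overlap). Timd4 had a log2 difference of 0.003 with an interval from −0.93 to 0.94. Leaving out FBXL5ΔDC replicate 1 or replicate 2 left 2 markers at an unadjusted p below 0.05, and the fit of all 12 libraries left 1. In the latter fit the number over all tested genes fell too.

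Of 18 monocyte and infiltrating macrophage markers 14 were tested, 12 were positive, 2 were higher at an unadjusted p below 0.05 (3.28% of all genes) and edgeR called 0, with a median of 0.42. Without FBXL5ΔDC replicate 1 the median was 0.15. Their summed level was 1308, 1310 and 1338 CPM in control and 1489, 1872 and 1622 CPM in FBXL5ΔDC livers, without overlap. Most of it was Fn1 (fibronectin), which hepatocytes also make, at 1199, 1180 and 1151 CPM against 1346, 1678 and 1469 CPM (edgeR adjusted p = 0.731). Ccr2 and Ly6c2, markers of incoming monocytes, were at or below 1.05 and 0.634 CPM in each library, with overlap.

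Markers of neutrophils and lymphocytes were low. S100a8 and S100a9 of neutrophils stayed at or below 0.326 CPM in all 6 libraries, and 10 of 15 neutrophil markers were under the floor in both genotypes. T-cell and natural killer markers (11 of 22 tested) and B-cell markers (14 of 18 tested) had 0 members at an unadjusted p below 0.05. Of 22 stellate cell and matrix markers 4 were lower at an unadjusted p below 0.05 (2.58% of all genes), with a median of −0.24. Among them Hgf, the hepatocyte growth factor, was at 3.71, 3.04 and 3.45 CPM against 1.87, 2.05 and 1.30 CPM (edgeR adjusted p = 0.633). Reln, a secreted protein of these cells, was at 17.7, 21.9 and 28.3 CPM against 18.6, 12.4 and 10.1 CPM, with overlap. Without control replicate 3, FBXL5ΔDC replicate 2 or FBXL5ΔDC replicate 3 the number of stellate markers lower at an unadjusted p below 0.05 was 1, and without control replicate 2 it was 2. Without control replicate 3 the median was −0.04 and 2 markers were higher at that threshold. The globin genes Hba-a1 and Hbb-bs, from red blood cells in the tissue, overlapped, and their share of all counts was 0.0230% to 0.0321% in control and 0.0248% to 0.0447% in FBXL5ΔDC libraries.

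Of the enzymes that handle acetaminophen, Cyp2e1, which makes its toxic product, was at 7067, 9695 and 8103 CPM in control and 9626, 8998 and 8921 CPM in FBXL5ΔDC livers (edgeR adjusted p = 0.944). Cyp1a2 was at 305, 311 and 270 CPM against 436, 365 and 453 CPM, without overlap (log2 0.50, edgeR adjusted p = 0.368), and was called by DESeq2 (adjusted p = 0.00496). Cyp3a11 ranged from 4855 to 8655 CPM over the 6 libraries, with overlap. Of 46 tested genes of conjugation and glutathione, 4 were higher and 4 lower at an unadjusted p below 0.05 (3.28% and 2.58% of all genes), and the median was 0.006, with the other sign in 5 of 14 alternatives. Of the glutathione transferases, Gstp1 was at 1746, 1610 and 1469 CPM against 2388, 1663 and 2570 CPM (edgeR adjusted p = 0.808). The zonal lists of hepatocytes had medians of 0.14 (pericentral) and 0.08 (periportal), and edgeR called 0 of their genes. At an unadjusted p below 0.05, 5 of 34 pericentral genes were higher and 1 lower. Of 29 periportal genes, 3 were higher and 0 lower (3.28% and 2.58% of all genes). Without overlap, 4 pericentral and 6 periportal genes were higher (6.28%) and 1 of each lower (5.85%). The fit of all 12 libraries left 1 of each list higher at that p, and the number over all tested genes fell too.

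Stress, interferon and clock genes gave no difference called by edgeR, whereas DESeq2 called Gadd45b and Per3. Of 45 interferon-stimulated genes 3 were higher at an unadjusted p below 0.05 (3.28% of all genes), led by Iigp1 (an interferon-induced GTPase) at 234, 248 and 203 CPM against 255, 309 and 300 CPM. In the fit of all 12 libraries, where the number over all tested genes fell too, 0 were, and without FBXL5ΔDC replicate 2, 1 was. Of 27 immediate early genes 2 were higher and 3 lower at that threshold (3.28% and 2.58% of all genes), among them Gadd45b, a stress sensor, at 15.5, 20.8 and 17.2 CPM against 4.92, 7.24 and 11.3 CPM (edgeR adjusted p = 0.623). Heat shock genes had a median of −0.16, and 19 of 24 were negative. Their median was −0.30 without control replicate 1 and −0.04 without control replicate 3. In the clock list of 27 genes, Per3 was at 2.76, 2.53 and 3.76 CPM against 4.94, 6.98 and 5.71 CPM (edgeR adjusted p = 0.522), and the median was 0.04. Within genotypes the clock differed between animals. Dbp, a clock-driven transcription factor, was at 2.16, 5.25 and 13.5 CPM in control and 2.91, 12.02 and 6.29 CPM in FBXL5ΔDC livers.

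Transcripts of the mitochondrial genome and nuclear genes of the respiratory chain had medians of opposite sign. Of 15 mitochondrially encoded transcripts 14 were positive, with a median of 0.22, and control replicate 2 was low. Their share of all counts was 6.86%, 5.32% and 6.85% in control and 6.44%, 6.33% and 6.84% in FBXL5ΔDC libraries. These shares overlapped. The log2 differences use scaled counts, whose scaling factors did not overlap between genotypes, and the part of the scaling in this median was not tested. Of 40 nuclear-encoded respiratory chain genes 38 were negative (median −0.09) and 8 were lower without overlap (5.85% of all genes were). Also negative were 38 of 42 cytosolic ribosomal protein genes, with a median of −0.07. Nearly all of these intervals, 15 of 15, 40 of 40 and 41 of 42, lay within a 2-fold change. Over genes of at least 5 CPM the median log2 difference ran from −0.03 in the shortest sixth by exon length to 0.03 in the longest, and its part in these lists was not tested.

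The genes that varied most within a genotype, at 5 CPM or more, were mainly of 2 kinds. The first were genes that overlap another gene or have a near-identical copy, such as Commd1b, Septin2, Gm20716, Gm20708, Gm44805 and the Mup pseudogenes. Commd1b was listed at 18.1, 0 and 13.5 CPM in control and 15.5, 17.2 and 0 CPM in FBXL5ΔDC livers, inside the span of Commd1 on the same strand. The second were Saa1, Saa2 and Lcn2, described above. H2ac18, a histone gene, was at 1.13, 0 and 0 CPM against 21.6, 4.91 and 29.7 CPM, without overlap (edgeR adjusted p = 0.828). At 6 h its log2 difference was −7.12 (edgeR adjusted p = 0.220).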

How the data were processed

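Total RNA of whole liver was sequenced. Per the submitters' processing notes, Trim Galore 0.6.6 trimmed the reads and HISAT2 2.2.1 mapped them to mm10. How genes were counted, and whether by strand, is not given in the sources used here. The authors deposited estimated counts per gene for 55401 genes in 12 libraries, without normalisation. All values were whole, but 26.7% to 28.5% of values from 1 to 40 were multiples of 4 in the untreated libraries, against 25% for an even spread. The floor was therefore 12 counts, equal to 3 fragments if each gave 4 counts, and it covers counting error only. Identifiers matched GENCODE vM21 (GRCm38) for 99.5% of genes.

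The 6 untreated libraries were fitted alone in edgeR 4.0.16 (R 4.3.3), with filterByExpr, TMM scaling and a robust quasi-likelihood test with 4 residual degrees of freedom, and calls were made at a Benjamini-Hochberg adjusted p below 0.05. Intervals of 95% used the model's standard error. Log2 CPM used a prior count of 2. The test had been planned for raw counts and was kept since values were whole. The alternatives were upper quartile and RLE scaling, no filter, the replicate block, all 12 libraries, limma-trend (3.58.1), DESeq2 (1.42.0), each library left out and, added after seeing the data, counts divided by 4. The script was tested on simulated data.

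Members and lists were chosen with earlier results of these data known, and the complement, male-biased and female-biased lists were added after values were seen. Named genes were Fbxl5, Itgax and the called genes. Genes of lowest p followed, up to 10 in each direction, with a mean of at least 1 CPM in either genotype. From each list came the most abundant member, the 2 of lowest p and the defining markers. The 15 most variable genes within genotypes of at least 5 CPM were added, and the 10 protein-coding genes highest per exon length. Other list members named were chosen after their values were seen, for their role.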

Additional observations from a re-analysis of the deposited data

Results flagged for a closer look

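For 4 named genes the genotype difference at 6 h after acetaminophen differed from that in untreated livers, by an interaction term in an edgeR fit of all 12 libraries. They were picked from all named genes, and the share of all tested genes with such a difference is not given here. The interaction was not refitted without treated control replicate 3, on which the calls at 6 h depended. For Cyp2e1 the log2 difference at 6 h minus that in untreated livers was −2.20 (edgeR adjusted p = 0.0327), with 4487, 2493 and 3462 CPM in treated control and 1166, 695 and 644 CPM in treated FBXL5ΔDC livers. For Cyp1a2 it was −2.26 (edgeR adjusted p = 0.0293), with 254, 200 and 134 CPM against 76.9, 50.01 and 47.3 CPM at 6 h. For Fam222a it was −3.16 (edgeR adjusted p = 0.0483), since the gene was higher in untreated FBXL5ΔDC livers and lower at 6 h, at 4.55, 5.56 and 3.39 CPM against 1.17, 1.496 and 3.06 CPM. For Gm15501, a transcribed pseudogene, it was 1.69 (edgeR adjusted p = 0.0493). In untreated livers the edgeR fit as reported called none of the 4, whereas DESeq2 called Cyp1a2, Fam222a and Gm15501. Fam222a was also called without a filter and without control replicate 3.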

How the results depend on the processing

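The number of genes called higher was 3 in the fit as reported, 8 without a filter, 7 with the replicate block, 0 with all 12 libraries, 48 with DESeq2, and 0 to 5 when single libraries were left out. The number called lower was 0, with 1 without a filter, 19 with DESeq2 and 0 to 2 when single libraries were left out. Genes at an unadjusted p below 0.05 numbered 933, with 465 in the fit of all 12 libraries and 705 to 1570 when single libraries were left out, the highest without control replicate 1. The number of intervals within a 2-fold change stayed within 1.5 times 10417 in each alternative that gave one. Deviations of same-numbered libraries correlated at 0.00068, −0.015 and −0.0064, so no pairing by replicate number was seen. This cannot exclude that same-numbered animals were related or handled together. The block kept all 3 called genes. The distance excess was 0.0276 over genes of at least 5 CPM (exact permutation p = 0.1) and 0.0135 with upper quartile scaling (exact permutation p = 0.2). At 6 h, leaving out treated control replicate 3 again left 2 of the 3 called genes with the same direction, while the number of genes called there went from 6 to 2863. The causes were not tested. With 3 livers a group, genes below 1 CPM were bounded poorly.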
